A study of Mus musculus with 12 samples.

Results

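Robo receptors and Slit ligands were followed in neonatal mouse cortex with conditional knockout of the genes for the histone variant H3.3. The members were Robo1, Robo2, Robo3, Slit1, Slit2 and Slit3, taken by gene symbol from versioned Ensembl identifiers: 6 of the 51912 genes listed in each count table. Of these, 5 were among the 11076 genes with enough counts to be tested, and Robo3 was not. RNA depleted of ribosomal RNA was made into ClickSeq libraries, which are prepared with click chemistry, and molecules were counted by their unique identifiers. Cortex was collected at postnatal day 0 (P0) from 3 groups of 4 libraries each. Control libraries are labelled only as control, with no allele or Cre given. The H3.3 Neurod6 dKO group (dKO-N) is described as a conditional knockout of H3f3a and H3f3b, the genes encoding H3.3, by Neurod6-Cre, which acts in newly postmitotic excitatory neurons of the cortex. The H3.3 Emx1 dKO group (dKO-E) is described as a conditional knockout of the same genes by Emx1-Cre, which acts earlier, in dorsal progenitors, and so also reaches the glia they give rise to. Neither driver acts in interneurons, vessels or microglia, so every dKO library also holds RNA of cells that kept the genes.

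Slits are large secreted glycoproteins, and Robos are the immunoglobulin-family receptors that bind them, with heparan sulfate taking part. Binding acts on the actin cytoskeleton and turns growth cones and migrating cells away from the Slit source. In the forebrain the pathway is known for guiding corticofugal, callosal and thalamocortical axons, for positioning migrating neurons, and for acting on progenitors in the germinal zones.

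Counts in genes ranged from 722080 to 3502017 per library, and 3 counts were worth between 0.8566 and 4.155 CPM. CPM is the unit of level used below and scales each library's counts to 1 common total. Depth was uneven between groups: dKO-N 1, dKO-N 2 and dKO-N 3 had the fewest counts (722080, 1046240 and 746318). The most were in dKO-N 4, and control held 1974975 to 3083599. H3f3a was low in the pair of libraries labelled control 1 (17.7 CPM) and control 3 (16.4 CPM), below all 4 dKO-N libraries (22.1 to 37.8 CPM) and all 4 dKO-E libraries (22.9 to 30 CPM), while control 2 and control 4 held 117 and 121 CPM. H3f3b was not lower in the dKO groups (76.7 to 143 CPM in control, 111 to 146 CPM in dKO-N and 167 to 180 CPM in dKO-E). The deleted part of each gene was not separated from the rest in these counts. The Robo and Slit results against control are therefore also given without control 1 and control 3. Markers of cortical excitatory neurons were present in every group, and 5 of 5 Hox genes of the hindbrain and spinal cord were at 0 in all libraries. Y-linked genes summed to 1035 counts in dKO-E 3 and 274 counts in dKO-E 4 and to at most 3 counts in each other library.

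The Robo and Slit genes differed from control mostly in dKO-E. All 3 Slit genes rose there, by 1.60 for Slit3, 0.83 for Slit1 and 0.64 for Slit2 on the log2 scale, and Robo2 fell by 0.70, whereas Robo1 missed the threshold. Against control, only Slit1 rose in dKO-N, by 0.97. By edgeR's quasi-likelihood test at an adjusted p under 0.05, 1 of the 5 tested members was called in dKO-N against control, where 11.3% of all 11076 genes were called (5.04% higher and 6.29% lower). In dKO-E against control 4 of 5 were called, 3 higher and 1 lower, against 20.2% of all genes (10.1% higher and 10.1% lower). In dKO-E against dKO-N 3 of 5 were called, 1 higher and 2 lower, against 6.84% of all genes (3.11% higher and 3.73% lower). The count of members called was 2 in the first comparison without dKO-N 1, and 1 in the last without dKO-N 3, dKO-E 1 or dKO-E 3. Groups that did not overlap in CPM were counted too. Of the 5 members, 2 lay wholly higher in dKO-N against control and 0 wholly lower, beside 5.84% and 7.19% of all genes. In dKO-E against control 3 lay higher and 1 lower, against 12.5% and 13% of all genes. Between dKO-E and dKO-N, 1 lay higher and 2 lower in dKO-E, against 5.4% and 4.8% of all genes. The first 2 comparisons share the 4 control libraries. The median log2 fold change of the 5 members was 0.23, 0.64 and -0.14 in these 3 comparisons, and that of all tested genes was 0.01, 0.01 and -0.0023. These are RNA levels of whole tissue, in which fewer cells of a type and less RNA per cell cannot be told apart. Whether each library is a separate animal is not in the labels, so the tests measure a spread between libraries that may be technical.

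**Figure D1:**
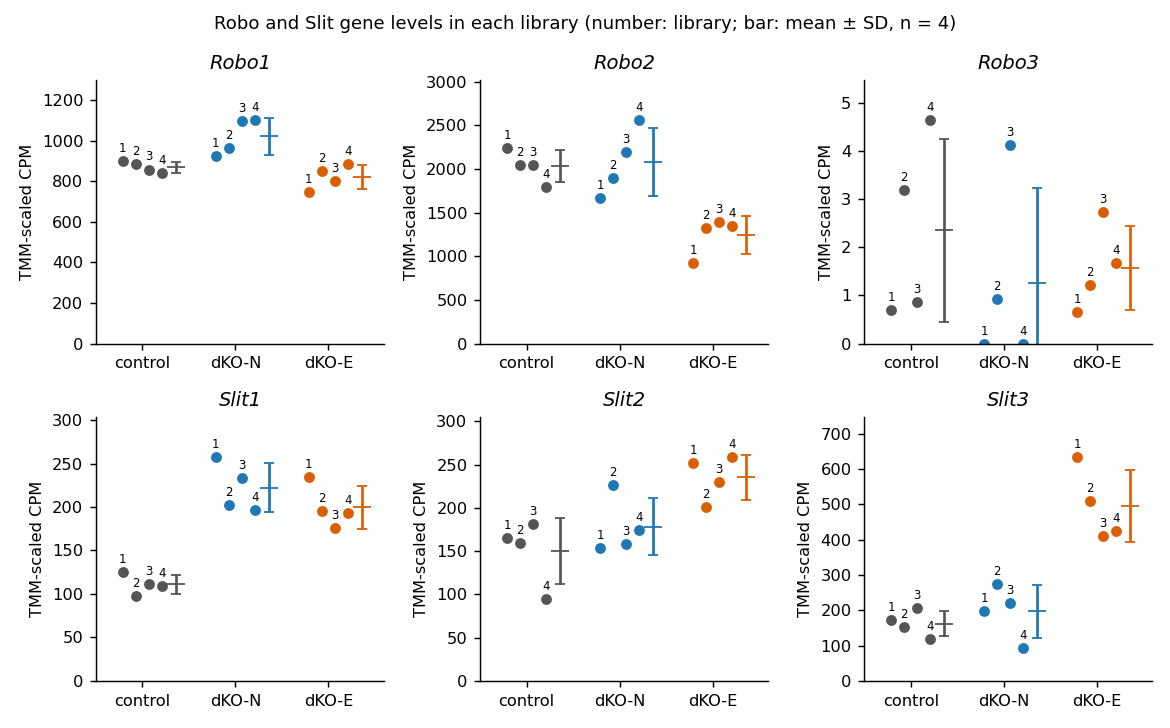
Level of each Robo and Slit gene in CPM (linear axes starting at 0, a separate scale for each gene) in the 12 libraries, where numbered points are libraries and the bars beside them are group means ± SD (n = 4), the dKO-N bar of Robo3 being drawn only down to 0. Slit3 in dKO-E lies between 411 and 634 CPM, above all control and dKO-N libraries, and Robo2 in dKO-E lies between 924 and 1394 CPM, below all of them.

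Robo2 is the receptor with the highest level of the family in this tissue and acts on cortical and thalamic axons together with Robo1. The gene (ENSMUSG00000052516.17) spans 520 kb of the minus strand, chr16:73891839-74411825 in mm10. The 4 control libraries held 2236, 2050, 2048 and 1791 CPM of Robo2. In dKO-N the values were 1673, 1893, 2195 and 2562 CPM. In dKO-E they were 924, 1322, 1394 and 1347 CPM. The dKO-N libraries lay on both sides of the control range, while every dKO-E library lay below the lowest library of both other groups. The means were 2031 ± 183 CPM in control, 2081 ± 386 CPM in dKO-N and 1247 ± 217 CPM in dKO-E (SD, n = 4 each).

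Robo2 fell in dKO-E against control with a log2 fold change of -0.70 (SE 0.13, edgeR adjusted p = 0.000234), to 0.614 of the control level. Among the 1118 genes called lower in that comparison, 410 had a fold change at least as large. It also fell in dKO-E against dKO-N (log2 fold change -0.74, SE 0.13, edgeR adjusted p = 0.00104). In dKO-N against control the log2 fold change was 0.038 (SE 0.13, edgeR adjusted p = 0.912). Its sign turned without dKO-N 4 (-0.084) or without control 4 (-0.029), and it was 0.11 without control 1 and control 3 (edgeR adjusted p = 0.794). The coefficient of variation between libraries was 18.5% for dKO-N, 17.4% for dKO-E and 9% for control, where counting alone would give 1.51% to 2.26%. Without dKO-E 1 it was 2.66% in dKO-E, below that of control.

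The lowest Robo2 value belonged to dKO-E 1, which stood apart from the other 3 libraries of its group in markers too. Its summed level of the 5 Zic genes of the septum and midline was 109 CPM, against 10.2 to 19.0 CPM in the other dKO-E libraries, 11.2 to 16.0 CPM in control and 8.27 to 18.6 CPM in dKO-N. Its summed level of 6 meningeal genes was 52.9 CPM, against at most 17.0 CPM elsewhere. Without dKO-E 1, the Robo2 change against control was -0.59 (edgeR adjusted p = 0.000161), and without control 1 and control 3 it was -0.62 (edgeR adjusted p = 0.0137). The summed level of 10 excitatory neuron markers was 3516 to 3932 CPM in control, 2461 to 3235 CPM in dKO-N and 1714 to 2224 CPM in dKO-E. Within dKO-N, dKO-N 4 held 3235 CPM of these markers and the other libraries 2461 to 2640 CPM. The summed level of 7 Cajal-Retzius cell markers was 427 to 493 CPM in control, 383 to 506 CPM in dKO-N and 247 to 375 CPM in dKO-E. As for Robo2, every dKO-E library lay below all others in this sum. Most of the sum was Reln, with means of 400 CPM in control and 267 CPM in dKO-E. The markers did not move together: the mean of Ebf3 was 10.8 CPM in control and 21.1 CPM in dKO-E. Of the 5 tested, 2 were called lower and 1 higher in dKO-E against control, where 10.1% of all genes were called in each direction. The part of any of these markers in the Robo2 values was not tested.

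The 250 bases before the Robo2 start site at the gene's upstream end are shown because Robo2 is the receptor called in dKO-E against both other groups (RefSeq, GRCm38.p6, chr16:74411826-74412075, minus strand, 5′ to 3′, with CG in capitals).
Robo2: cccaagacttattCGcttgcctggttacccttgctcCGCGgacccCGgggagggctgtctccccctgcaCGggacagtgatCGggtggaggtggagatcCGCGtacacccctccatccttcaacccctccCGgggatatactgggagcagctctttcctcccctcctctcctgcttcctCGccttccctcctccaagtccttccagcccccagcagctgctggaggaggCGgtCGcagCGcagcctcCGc
It holds 14 CG, as many as or more than 72.7% of the 32851 windows of this length in the RefSeq table, whose median is 6. RefSeq places other Robo2 starts 680945 and 1035468 bases further upstream, with 4 and 8 CG in their windows. The counts do not separate these starts.

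Robo1 binds the same ligands as Robo2 and is expressed in callosal and corticofugal neurons. The gene (ENSMUSG00000022883.10) spans 737.8 kb of the plus strand, chr16:72308306-73046095 in mm10. Control libraries held 899, 884, 859 and 839 CPM, a coefficient of variation of 3.07% that was close to the 2.3% that counting alone would give. The dKO-N libraries held 924, 965, 1096 and 1103 CPM and the dKO-E libraries 748, 850, 800 and 884 CPM. All 4 dKO-N libraries lay above all control and all dKO-E libraries, and dKO-E overlapped control. Without overlap in either direction were 13% of tested genes in dKO-N against control, 25.5% in dKO-E against control and 10.2% in dKO-E against dKO-N.

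Despite that separation, the Robo1 difference between dKO-N and control missed the threshold (log2 fold change 0.23, SE 0.09, edgeR adjusted p = 0.0874). Its call there depended on the settings: scaling by library totals gave 0.30 (edgeR adjusted p = 0.00634), DESeq2 gave 0.23 (adjusted p = 0.0433) and leaving out dKO-N 1 gave 0.28 (edgeR adjusted p = 0.0432). Without control 1 and control 3 it was 0.24 (edgeR adjusted p = 0.264). In dKO-E against control the log2 fold change was -0.085 (SE 0.088, edgeR adjusted p = 0.549), and it was 0.044 with library totals, -0.044 without dKO-E 1 and -0.072 without control 1 and control 3. The test called Robo1 lower in dKO-E against dKO-N (log2 fold change -0.32, SE 0.09, edgeR adjusted p = 0.0231). That call was lost without dKO-N 3 (-0.28), dKO-N 4 (-0.28), dKO-E 1 (-0.28) or dKO-E 3 (-0.31), with adjusted p of 0.0753, 0.0752, 0.0771 and 0.0696. Of the 413 genes called lower in that comparison, 404 had a fold change at least as large as that of Robo1.

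Robo3 is a divergent receptor best known from hindbrain and spinal commissural neurons. It was barely detected. The gene (ENSMUSG00000032128.15, chr9:37415669-37433246, minus strand, mm10) had 2, 6, 2 and 9 counts in the control libraries, 0, 1, 3 and 0 counts in dKO-N, and 1, 3, 7 and 3 counts in dKO-E. These correspond to at most 4.65 CPM in any library, and the 3 groups overlapped. A two-sided exact permutation test over libraries gave p = 0.486 for dKO-N against control, 0.514 for dKO-E against control and 0.83 for dKO-E against dKO-N, where 4 against 4 allows no p below 0.0286. A difference in Robo3 was not detectable at this depth.

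Slit3 is a secreted ligand, and it showed the largest change of the 6 genes. It spans 587.3 kb of the plus strand (ENSMUSG00000056427.10, chr11:35121224-35708507, mm10). Control libraries held 171, 154, 206 and 119 CPM. The dKO-N libraries held 197, 273, 222 and 94.3 CPM, of which dKO-N 4 was below every control library and dKO-N 2 and dKO-N 3 were above. The dKO-E libraries held 634, 511, 411 and 426 CPM, and the lowest of them was above the highest of all other libraries.

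Slit3 rose 3.03-fold in dKO-E against control (log2 fold change 1.60, SE 0.30, edgeR adjusted p = 0.00489). Of the 1120 genes called higher there, 79 had a fold change at least as large. Without dKO-E 1, the library with high Zic and meningeal genes and the highest Slit3, the value was 1.46 (edgeR adjusted p = 0.0141). Without control 1 and control 3 it was 1.85 (edgeR adjusted p = 0.0326). The other 3 dKO-E libraries held Slit3 at 411 to 511 CPM and Zic genes at 10.2 to 19.0 CPM. Their meningeal sums were 17.0 CPM in dKO-E 2, which had the highest Slit3 of the 3, and 5.08 and 3.36 CPM in dKO-E 3 and dKO-E 4, against 2.59 to 7.23 CPM in control. The part of these markers in the Slit3 values was not tested.

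Slit3 was also higher in dKO-E than in dKO-N (log2 fold change 1.39, SE 0.32, edgeR adjusted p = 0.0327). This call was close to the threshold: leaving out any 1 of control 1, control 2, dKO-N 1, dKO-N 3 or the 4 dKO-E libraries raised the adjusted p to between 0.0501 and 0.0728, with log2 fold changes of 1.26 to 1.47. In dKO-N against control the log2 fold change was 0.20 (SE 0.33, edgeR adjusted p = 0.794). Its value rested on single libraries: it was 0.51 without dKO-N 4, 0.34 without control 3, 0.12 without dKO-N 3, 0.079 without control 4 and -0.057 without dKO-N 2. Without control 1 and control 3 it was 0.46 (edgeR adjusted p = 0.665). The coefficient of variation of Slit3 in dKO-N was 38.2%, where counting alone would give 7.02%, and without dKO-N 4 it was 16.8%.

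Slit1 is the Slit most restricted to the nervous system, and it was the one member called in both dKO groups against control. It spans 143.4 kb of the minus strand (ENSMUSG00000025020.11, chr19:41600257-41743665, mm10). Control libraries held 125, 98.0, 111 and 109.5 CPM. The dKO-N libraries held 257, 202, 233 and 196 CPM and the dKO-E libraries 234, 196, 176 and 193 CPM. Every dKO library of either kind lay above every control library, and the dKO groups overlapped each other.

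Slit1 rose in dKO-N against control with a log2 fold change of 0.97 (SE 0.11, edgeR adjusted p = 1.84e-08), and 161 of the 558 genes called higher there changed at least as much. It rose in dKO-E against control by 0.83 (SE 0.11, edgeR adjusted p = 1.09e-07). In dKO-E against dKO-N the log2 fold change was -0.14 (SE 0.11, edgeR adjusted p = 0.473). Leaving out any 1 library kept the change between 0.90 and 1.03 in dKO-N and between 0.75 and 0.90 in dKO-E, and without control 1 and control 3 the values were 1.07 and 0.94. The summed level of 8 astrocyte and radial glia markers was also higher in both dKO groups, at 317 to 356 CPM in dKO-N and 290 to 331 CPM in dKO-E against 225 to 248.6 CPM in control. The part of these markers in the Slit1 values was not tested.

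Slit2 is the ligand best known for keeping callosal and corticofugal axons on their course past the midline. It spans 324.6 kb of the plus strand (ENSMUSG00000031558.15, chr5:47983138-48307733, mm10). Control libraries held 165, 159, 181 and 94.5 CPM, of which control 4 was well below the other 3. The dKO-N libraries held 154, 227, 159 and 174 CPM and overlapped both other groups. The dKO-E libraries held 251, 201, 229 and 258 CPM, all above control.

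Slit2 rose in dKO-E against control (log2 fold change 0.64, SE 0.16, edgeR adjusted p = 0.0124). In dKO-N against control the log2 fold change was 0.25 (SE 0.17, edgeR adjusted p = 0.44). It was 0.081 without control 4, 0.13 without dKO-N 2 and 0.50 without control 1 and control 3, with adjusted p of 0.792, 0.721 and 0.135. The difference between dKO-E and dKO-N was 0.38 (SE 0.17, edgeR adjusted p = 0.203). This difference passed without control 4 (0.39, edgeR adjusted p = 0.0313). The call in dKO-E was kept without dKO-E 1 (0.60, edgeR adjusted p = 0.0368) and without control 1 and control 3 (0.88, edgeR adjusted p = 0.00213). It was lost when only the libraries of the 2 groups were fitted (0.63, adjusted p = 0.0543) and when the presence of Y-linked counts was a covariate (0.58, adjusted p = 0.088). Both libraries with many Y-linked counts were dKO-E libraries, and their Slit2 values were 229 and 258 CPM against 251 and 201 CPM in the other 2.

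The 250 bases before the Slit2 start site are shown as the promoter of a called ligand (RefSeq, GRCm38.p6, chr5:47982905-47983154, plus strand, 5′ to 3′, with CG in capitals).
Slit2: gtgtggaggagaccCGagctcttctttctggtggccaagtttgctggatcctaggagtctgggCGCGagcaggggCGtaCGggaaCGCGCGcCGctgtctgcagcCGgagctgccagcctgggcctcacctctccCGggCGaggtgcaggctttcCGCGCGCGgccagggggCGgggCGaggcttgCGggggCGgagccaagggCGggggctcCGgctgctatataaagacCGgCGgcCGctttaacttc
It holds 25 CG, as many as or more than 90.4% of windows, and the motif TATAAA on the gene's strand, which 7.6% of windows hold. The Slit3 window holds 35 CG, as many as or more than 97.4% of windows, and the Robo1 and Robo3 windows hold 11 and 12. The Robo1 window precedes a RefSeq start that lies 354843 bases inside the gene span given above, not the start of that span.

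**Figure D2:**
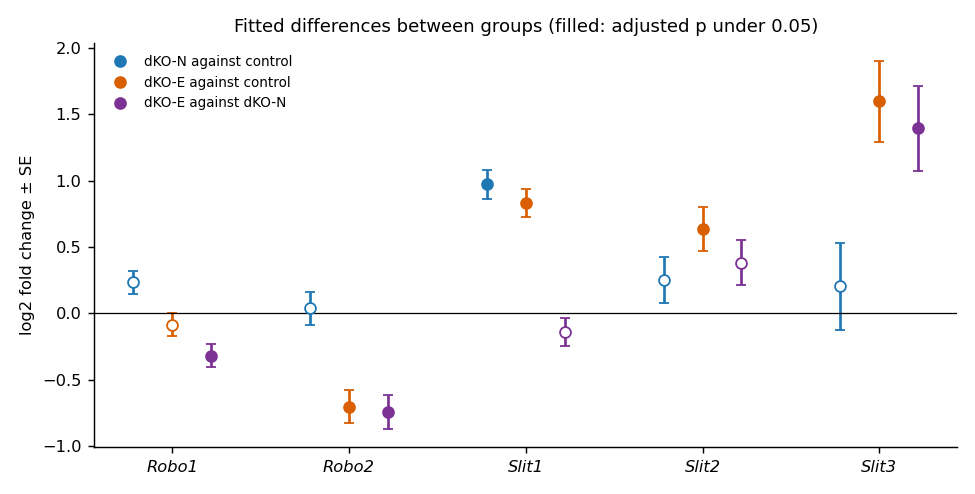
Log2 fold change of the 5 tested members in the 3 comparisons, with bars for the standard error of the edgeR fit and filled points for an adjusted p under 0.05. In dKO-E against control the 3 Slit genes lie between 0.64 and 1.60 and Robo2 at -0.70, and in dKO-N against control Slit1 alone is filled.

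Introns of Slit2 and Slit3 also carry the hairpins of the microRNA miR-218, which is known to pair with Robo transcripts. The mature sequences are shown because letters that pair with the 5p arm occur in the Robo genes and in Slit2 itself (RefSeq, GRCm38.p6, 5′ to 3′, seed of bases 2 to 8 in capitals). Whether the microRNA has a part in the changes of these genes was not tested. Mir218-1 lies in Slit2, with the 5p arm at chr5:48223966-48223986. Mir218-2 lies in intron 14 of the Slit3 transcript with 36 exons, with the 5p arm at chr11:35616840-35616860. Both are on the strand of their host gene and give the same 5p arm, while their 3p arms have different seeds.
mmu-miR-218-5p: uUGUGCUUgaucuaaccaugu
mmu-miR-218-1-3p: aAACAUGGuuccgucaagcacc
mmu-miR-218-2-3p: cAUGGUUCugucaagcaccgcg
The DNA letters that pair with the 5p seed, AAGCACA, were searched on the transcript strand in the longest annotated 3′ untranslated region of each member. Robo1 held 1 match in 1733 bases and Robo2 held 2 in 3987 bases, printed below with the match in capitals and its first base counted from the start of that region.
Robo1, base 986: ttttttggttttaaAAGCACAat
Robo2, base 461: ttttatttggtgatAAGCACAaa
Robo2, base 2787: gtcacggcagacccAAGCACAgc
Robo3 held 1 match in 343 bases and Slit2 held 2 in 3492 bases, and no such letters were found in Slit1 (1212 bases) or Slit3 (365 bases). The motif was present in 18.1% of the longest 3′ untranslated regions of 10400 tested genes, whose median length was 1423 bases, so a match in a long region is not rare. A match is a description of the sequence and not a measured site. Both hairpin genes were at 0 counts in all 12 libraries, as was every other gene with a count that overlaps a member. These 0 counts therefore cannot show whether the hairpins were expressed, and mature microRNAs were not measured.

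Levels of single genes were compared with each other per length. The shares, ratios and family sums given after this are not corrected for length, so longer genes can weigh more in them. Per kb of annotated exon, control libraries held 120 ± 10.8 CPM of Robo2, 52.7 ± 1.62 of Robo1, 26.8 ± 5.92 of Slit3, 18.8 ± 1.90 of Slit1, 5.90 ± 1.498 of Slit2 and 0.344 ± 0.279 of Robo3 (SD, n = 4). Slit3 and Slit1 overlapped in this order (19.7 to 33.9 and 16.5 to 21.2 CPM per kb), and the other neighbours did not. In dKO-E, Slit3 at 81.7 ± 16.8 CPM per kb of exon overlapped Robo2 at 73.4 ± 12.8. Slit3 was above Robo2 in dKO-E 1 (104 against 54.4) and dKO-E 2 (84.2 against 77.9) and below it in dKO-E 3 (67.8 against 82.1) and dKO-E 4 (70.2 against 79.3). Without dKO-E 1 the means were 74.1 for Slit3 and 79.8 for Robo2. The order of the Slits depended on the length used. Per kb of gene, control Slit1 stood at 0.775, Slit2 at 0.462 and Slit3 at 0.277 CPM. In dKO-E these values were 1.39, 0.724 and 0.844 CPM per kb of gene, all below Robo2 at 2.40, with Slit3 (0.701 to 1.08) overlapping Slit2 (0.62 to 0.796).

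Within the receptors, the number of Robo2 counts per Robo1 count was 2.13 to 2.49 in control, 1.81 to 2.32 in dKO-N and 1.24 to 1.74 in dKO-E. The dKO-E range lay below both others, and dKO-N overlapped control. This ratio is taken within each library and does not depend on how libraries are scaled. Within the ligands, Slit3 made up 36.9% to 41.3% of Slit counts in control, 20.3% to 38.9% in dKO-N and 48.5% to 56.6% in dKO-E. Slit1 made up 22.4% to 33.9% in control, 28.8% to 42.3% in dKO-N and 20.9% to 22% in dKO-E, so its share was lowest in dKO-E although its level there was above control. The shares of a library sum to the whole, so they are not independent of each other.

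Summed over the family, Slit transcripts stood at 424 ± 75.7 CPM in control, 597 ± 98.1 CPM in dKO-N and 930 ± 132 CPM in dKO-E, and Robo transcripts at 2904 ± 206, 3104 ± 472 and 2069 ± 265 CPM (SD, n = 4). There were 5.84 to 8.15 Robo counts per Slit count in control, 4.07 to 7.88 in dKO-N and 1.49 to 2.69 in dKO-E. The dKO-E range lay below that of both other groups. Its lowest value belonged to dKO-E 1, and the other 3 libraries ranged from 2.39 to 2.69. In dKO-N, 3 libraries lay at 4.07 to 5.37 and dKO-N 4, the library with the most counts of the series, at 7.88.

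**Figure D3:**
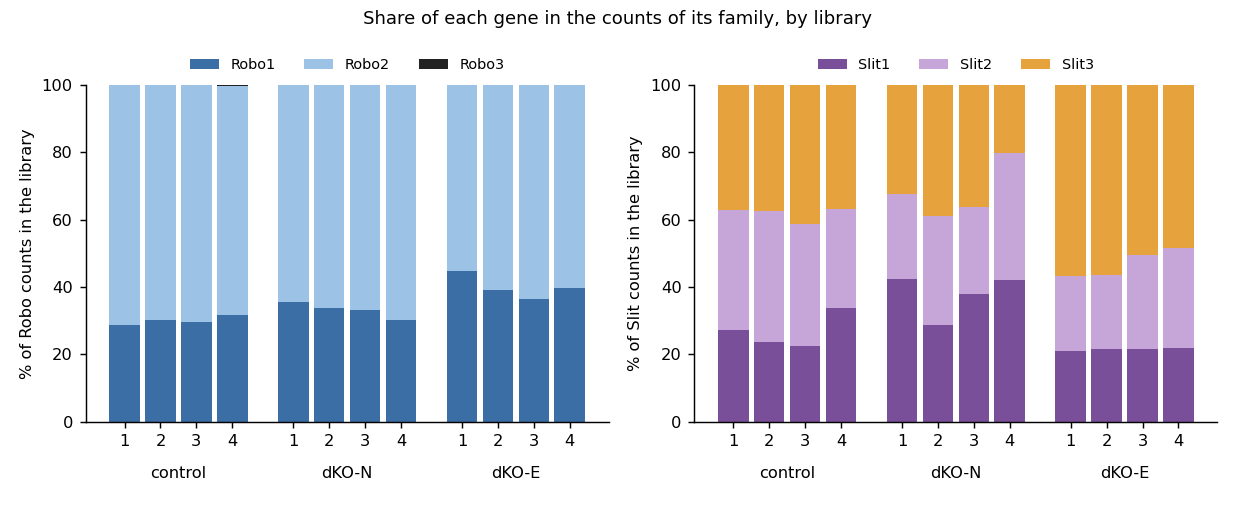
Stacked bars give, for each of the 12 libraries numbered within their group, the percentage of Robo counts held by each Robo (left) and of Slit counts held by each Slit (right). The dKO-E libraries have the highest Slit3 shares (48.5% to 56.6%), and the highest Robo1 shares (36.4% to 44.7%, against 28.7% to 31.8% in control).

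Genes that work with Slit and Robo were read from a list of 42 genes in 5 roles, of which 40 were tested; Robo4, the endothelial family member, and Sdc4 were not. In dKO-N against control 1 rose and 3 fell (10% called, against 11.3% of all genes, 5.04% higher and 6.29% lower). In dKO-E against control 1 rose and 8 fell (22.5%, against 20.2% of all genes, 10.1% higher and 10.1% lower). In dKO-E against dKO-N 1 rose and 3 fell (10%, against 6.84% of all genes, 3.11% higher and 3.73% lower). The number called was 5 in dKO-E against control without control 2, and in dKO-E against dKO-N it was 1 without dKO-N 4 and 2 without dKO-E 2, dKO-E 3 or dKO-E 4. The median log2 fold change of the tested list genes was -0.02, -0.03 and -0.12 in the 3 comparisons.

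Other receptors and ligands held the largest of these changes. Flrt2, a transmembrane protein that binds Unc5 receptors, was at 273 ± 30.7 CPM in control, 497 ± 72.6 CPM in dKO-N and 375 ± 37.0 CPM in dKO-E (SD, n = 4). It rose in both dKO groups, with log2 fold changes of 0.87 (SE 0.10, edgeR adjusted p = 5.57e-08) in dKO-N and 0.46 (SE 0.10, edgeR adjusted p = 0.001) in dKO-E. Against dKO-N it fell in dKO-E (-0.42, adjusted p = 0.0102), a call lost without dKO-N 4 (-0.31, adjusted p = 0.0666). Flrt3, a Robo1 co-receptor in thalamocortical axons, fell in dKO-E from 18.7 ± 3.65 to 10.6 ± 3.43 CPM (log2 fold change -0.77, edgeR adjusted p = 0.0181). That call was lost without control 2 (-0.66, adjusted p = 0.0764) or dKO-E 1 (-0.61, adjusted p = 0.0706), with DESeq2 (-0.79, 0.0526), with thinning to the smallest library (-0.93, 0.0834) and with the Y-linked covariate (-0.83, 0.0749).

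Nell2, a secreted Robo3 ligand, fell in dKO-E from 819 ± 43.3 to 620 ± 88.5 CPM (log2 fold change -0.40, edgeR adjusted p = 0.00446), a call lost without control 1 and control 3 (-0.36, adjusted p = 0.0699). Its relative Nell1 fell in dKO-N from 160 ± 33.6 to 95.1 ± 23.2 CPM (-0.85, edgeR adjusted p = 0.0086). Plxna1, a semaphorin receptor that also binds a Slit fragment, fell in dKO-N (-0.35, edgeR adjusted p = 0.03). That call was lost without control 1 (-0.35, adjusted p = 0.0602), control 2 (-0.35, 0.0601), control 4 (-0.31, 0.107), dKO-N 3 (-0.34, 0.0656) or dKO-N 4 (-0.31, 0.077).

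Srgap1, a Slit-Robo GTPase-activating protein that binds the Robo tail, was at 491 ± 19.7 CPM in control, 362 ± 77.9 CPM in dKO-N and 299 ± 17.9 CPM in dKO-E. It fell in dKO-N (-0.42, edgeR adjusted p = 0.00547) and in dKO-E (-0.72, edgeR adjusted p = 2.16e-06), and the dKO-N call was lost without control 1 and control 3 (-0.42, adjusted p = 0.0583). Its relative Srgap2 fell in dKO-E (-0.34, edgeR adjusted p = 0.0065), a call lost without control 1 and control 3 (-0.30, adjusted p = 0.0886). Arhgap39, whose fly relative binds Robo, fell in dKO-E (-0.32, edgeR adjusted p = 0.0399), a call lost in 13 of 22 alternatives. Leaving out any 1 of the 4 control libraries, dKO-E 2, dKO-E 3 or dKO-E 4 was among these (log2 fold change -0.34 to -0.30, adjusted p 0.0645 to 0.11). Rac1, a GTPase that drives actin assembly at the growth cone, was higher in dKO-E than in dKO-N (0.40, edgeR adjusted p = 0.0401), a call lost in 14 of 22 alternatives. These included leaving out control 2, control 3, dKO-N 1, dKO-N 4, dKO-E 2, dKO-E 3 or dKO-E 4 (log2 fold change 0.27 to 0.41, adjusted p 0.0505 to 0.288).

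Of 10 kinases, adaptors and actin regulators, 2 fell in dKO-E against control, where 20.2% of all genes were called. For dKO-N against control 0 were called by edgeR or by DESeq2, where edgeR called 11.3% of all genes. An unadjusted edgeR p under 0.05 was found there for 1 of the 10 and for 23.1% of all genes. Nck2, an adaptor that recruits Pak kinases to guidance receptors, was at 216 ± 3.83 CPM in control, 203 ± 29.0 CPM in dKO-N and 150 ± 11.9 CPM in dKO-E. It fell in dKO-E against control (-0.53, edgeR adjusted p = 8.33e-05) and against dKO-N (-0.46, edgeR adjusted p = 0.0042), the latter call being lost without dKO-N 4 (-0.32, adjusted p = 0.0624). Cap2, an actin-binding protein, fell in dKO-E against control (-0.59, edgeR adjusted p = 0.0492), a call lost in 14 of 22 alternatives. Among them was leaving out control 1, control 2, control 3, dKO-N 3 or any dKO-E library (log2 fold change -0.64 to -0.47, adjusted p 0.0582 to 0.193). In dKO-N the Ena/VASP proteins Evl and Enah, which extend actin filaments and had the highest average counts of this role, had log2 fold changes of 0.08 (edgeR adjusted p = 0.653) and -0.08 (edgeR adjusted p = 0.71).

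Of 6 genes of receptor trafficking and cleavage, 1 fell in dKO-E against control, where 20.2% of all genes were called. In dKO-N against control 0 were called by edgeR or DESeq2, where edgeR called 11.3% of all genes. An unadjusted edgeR p under 0.05 was found there for 0 of the 6 and for 23.1% of all genes. Ndfip1, an adaptor that brings Robo1 to Nedd4-type ubiquitin ligases, was at 196 ± 15.1 CPM in control and 157 ± 18.9 CPM in dKO-E (-0.32, edgeR adjusted p = 0.019), and it was also lower than in dKO-N (-0.35, edgeR adjusted p = 0.0374). These calls were lost in 6 and 12 of 22 alternatives. The first was lost without control 2 (-0.29), dKO-E 2 (-0.32) or dKO-E 4 (-0.26), with adjusted p up to 0.102. The second was lost without dKO-N 1, dKO-N 2, dKO-N 3, dKO-E 2, dKO-E 3 or dKO-E 4 (-0.35 to -0.28, adjusted p up to 0.153). The ubiquitin ligase Nedd4 was at 494 ± 16.1 CPM in control, 546 ± 95.7 CPM in dKO-N and 478 ± 20.2 CPM in dKO-E.

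Of 7 tested genes for heparan sulfate proteoglycans and their synthesis, 0 were called in the 3 comparisons by edgeR or by DESeq2. Of all genes, edgeR called 11.3% in dKO-N against control, 20.2% in dKO-E against control and 6.84% in dKO-E against dKO-N. At an unadjusted edgeR p under 0.05 the counts were 0 in dKO-N against control, 0 in dKO-E against control and 1 in dKO-E against dKO-N, where all genes gave 23.1%, 31.7% and 22%. Ext1, which extends heparan sulfate chains, was at 868 ± 27.2 CPM in control, 812 ± 95.2 CPM in dKO-N and 911 ± 101 CPM in dKO-E, and the syndecan Sdc3 at 186 ± 10.5, 181 ± 45.2 and 189 ± 23.1 CPM.

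**Figure D4:**
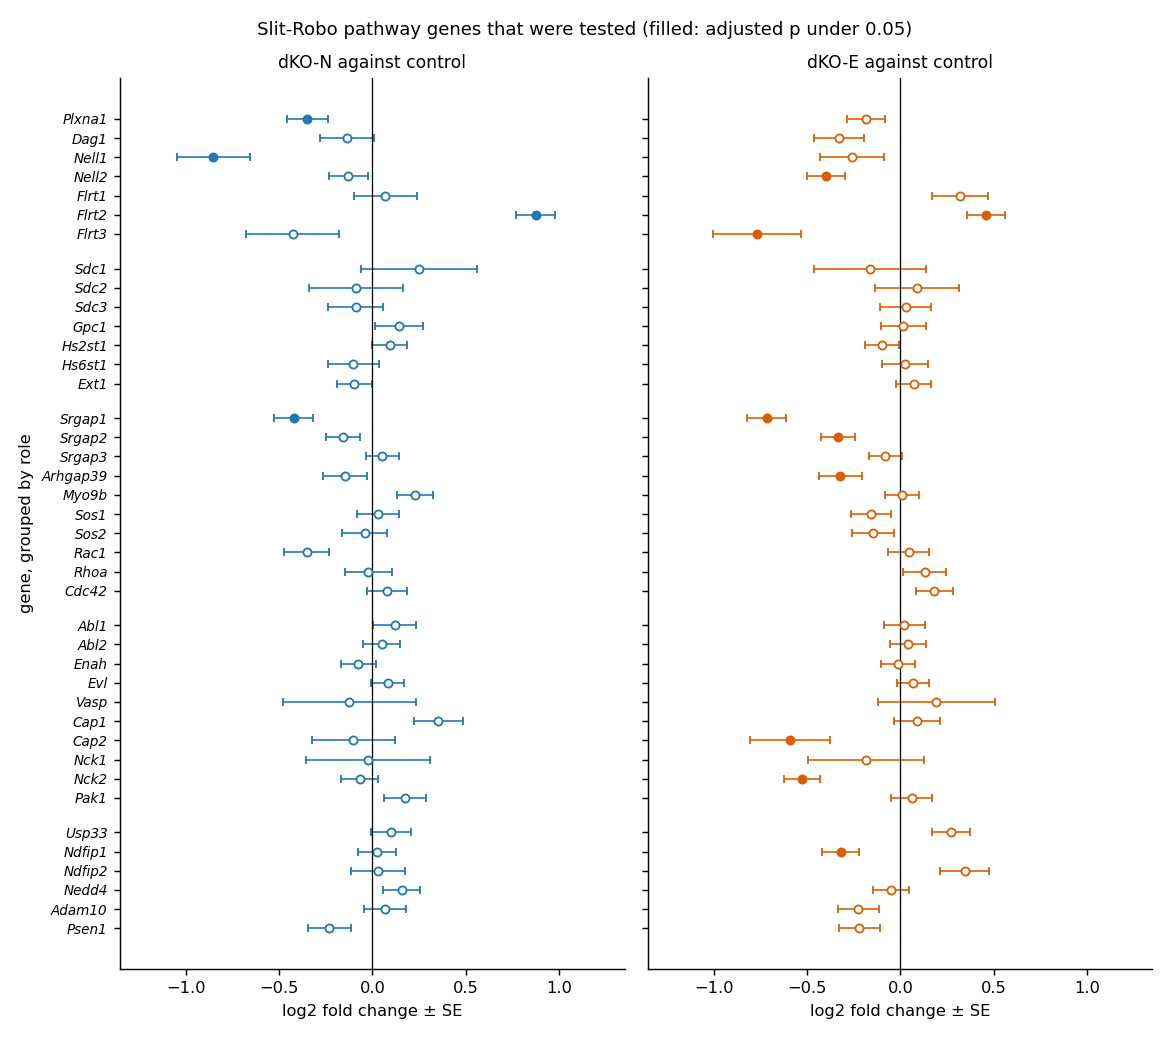
Log2 fold change of the 40 tested genes of the Slit-Robo pathway list in dKO-N (left) and dKO-E (right) against control, grouped by role from receptors and ligands at the top to trafficking at the bottom, with bars for the standard error and filled points for an edgeR adjusted p under 0.05. Flrt2 lies highest in dKO-N against control (0.87), and Flrt3 and Srgap1 lie lowest among the called genes in dKO-E against control (-0.77 and -0.72).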

How the data were processed

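The values used are raw counts per gene, deposited by the authors as 1 table for each of 12 libraries. The submitters' processing notes name STAR, UMI-tools, HTSeq and the build mm10; no source used here gives versions, the annotation or the strand setting, so reads of a gene and an antisense partner cannot be told apart. Of 51912 gene lines, 51719 (99.6%) matched GENCODE M21 by identifier. Robo1 and Robo2 matched without the version suffix, so their lengths are those of the M21 model. Lines for reads in no feature (6.65% to 8.94%), ambiguous reads (2% to 2.2%) and non-unique reads (2.3% to 4.16%) were left out.

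Groups came from sample titles. edgeR 4.0.16 in R 4.3.3 (TMM factors, filterByExpr with a minimum count of 10, robust quasi-likelihood fit with group as the only term, all 12 libraries) tested 11076 genes. P-values were adjusted by Benjamini-Hochberg over all of these, with a threshold of 0.05. The standard error is the log2 fold change divided by the square root of F. CPM are on TMM-scaled library sizes, and depth sets their counting error. Tests were also run on simulated counts with the same spread for every gene and changes only in dKO-N. Such counts do not cover genes or libraries that vary more. Alternatives were library totals, RLE factors, no filter, thinning to the smallest library, DESeq2 1.42.0, each library left out, control 1 and 3 left out, only the compared groups, a covariate for Y-linked counts and a replicate block. Leaving out control 4 and dKO-N 4 together was chosen after seeing the data. Same-numbered libraries of different groups had deviations correlated at -0.124 to 0.013, so the numbers were not taken as pairs. The highest correlation between groups was 0.227, for control 1 and dKO-N 4, the libraries with the most counts. Its cause was not tested. Every pair of libraries in a group differed by more than counting error (chi-square divided by its degrees of freedom, 1.62 to 5.99).

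The members and lists were chosen with earlier results of these data known. Named pathway genes are, per role and comparison, up to 4 called genes with the largest fold change, or the 2 with the highest average CPM where none was called; the count of 1 role is not reported here. Sequences came from RefSeq GRCm38.p6, where 5 of 6 members matched the promoter table.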

Additional observations from a re-analysis of the deposited data

Results flagged for a closer look

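The Robo2 level of dKO-E 1, 924 CPM, lay far below the other 3 dKO-E libraries (1322, 1347 and 1394 CPM). Its gap to the nearest library was 0.849 of the group's whole range, above Dixon's 95% critical value for 4 libraries. It was 1 of 18 groups examined, and chance flags about 1 in 20.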

How the results depend on the processing

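Each result was recomputed under 22 alternatives. Slit1 in both comparisons against control, Slit3 in dKO-E against control and Robo2 in dKO-E against both other groups kept their direction and call in all of them. For the other results the cause of a change was not tested. In dKO-N against control, Robo1 passed the threshold with library totals (0.30) and DESeq2 (0.23), with a range of 0.19 to 0.28 on leaving out 1 library; the count of members called was then 2, and 1 to 2 on leaving out 1 library. Robo2 in that comparison turned negative with no filter (-0.0024), without control 4 (-0.029), without dKO-N 4 (-0.084) and without both (-0.15), with -0.084 to 0.13 on leaving out 1 library, and Slit3 did so without dKO-N 2 (-0.057, the lowest of a range up to 0.51). In dKO-E against control, Robo1 turned to 0.044 with library totals, and Slit2 lost its call in the fit of only the 2 groups (0.63) and with the covariate for Y-linked counts (0.58). In dKO-E against dKO-N, Robo1 lost its call with no filter (-0.28), thinning (-0.30), only the 2 groups (-0.31), the Y-linked covariate (-0.36) and without control 4 and dKO-N 4 (-0.27), with -0.36 to -0.28 on leaving out 1 library. With the replicate block it was -0.32 (adjusted p = 0.0587), and the block changed the call of no other Robo or Slit gene, while Plxna1, Arhgap39, Cap2 and Rac1 lost theirs; it moved the count of all genes called in dKO-E against dKO-N from 758 to 500. Slit2 passed with no filter (0.41), with 0.33 to 0.51 on leaving out 1 library. Slit3 lost its call without control 1 and 3 (1.39), with only the 2 groups (1.38) and with the Y-linked covariate (1.60), with 1.08 to 1.65 on leaving out 1 library. Members called there were 1 with only the 2 groups or the Y-linked covariate, and 1 to 4 on leaving out 1 library. Pathway genes called in dKO-E against control were 5 with thinning, without control 1 and 3 and with the Y-linked covariate, and 5 to 12 on leaving out 1 library. In dKO-E against dKO-N they were 2 with thinning or the Y-linked covariate, 1 without control 4 and dKO-N 4, and 1 to 5 on leaving out 1 library.

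All genes called fell to 769 (thinning) and 756 (without control 1 and 3) in dKO-N against control, and to 1259, 1215 and 1325 (Y-linked covariate) in dKO-E against control. In dKO-E against dKO-N they fell to 315 (thinning), 488 (only the 2 groups), 223 (Y-linked covariate) and 279 (without control 4 and dKO-N 4), with 300 to 1036 on leaving out 1 library. Scaling by library totals moved the share of called genes that were higher from 44.5% to 57.8%, from 50% to 73.9% and from 45.5% to 65.4% in the 3 comparisons, and shifted the median of all genes to 0.14 in dKO-E against control. Depth limits Robo3, which had at most 9 counts in a library. Counts cannot separate alternative starts of Robo2 or spliced from unspliced RNA.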

Other observations

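The genes whose pattern over the 12 libraries was most like that of each called member were found among 9754 genes, by the root mean square difference of log2(CPM + 1) after centring each gene on its own mean. For Slit3 they were Snhg11 (0.27), a long non-coding RNA, Nr2f2 (0.30), a nuclear receptor, and Rassf8 (0.33), where Slit3 itself varied by 0.82 around its mean. Rassf8 was at 11.2 ± 2.22 CPM in control, 14.5 ± 2.87 CPM in dKO-N and 33.8 ± 3.32 CPM in dKO-E, and Nr2f2 at 18.0 ± 5.50, 20.5 ± 9.08 and 46.7 ± 16.2 CPM (SD, n = 4). For Robo2 they were the cadherin Cdh6 (0.10), Ints6 (0.13) and Fgd4 (0.13), where Robo2 varied by 0.40. Cdh6 was at 90.4 ± 7.71 CPM in control, 89.3 ± 21.9 CPM in dKO-N and 56.8 ± 10.9 CPM in dKO-E.

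For Slit1 they were Galnt10 (0.15), L3mbtl4 (0.17) and Nhsl1 (0.18), where Slit1 varied by 0.46. L3mbtl4 was at 105 ± 3.25 CPM in control, 206 ± 20.1 CPM in dKO-N and 165 ± 9.67 CPM in dKO-E. For Slit2 they were Tsc22d2 (0.18), Pccb (0.18) and Mfsd1 (0.20), where Slit2 varied by 0.38. For Robo1 they were Tdrd3 (0.059), Micu2 (0.065) and Rtn3 (0.082), where Robo1 varied by 0.16. These values describe likeness over libraries that share their groups and depth, and carry no test.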
